A study of Mus musculus with 6 samples.

Results

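Neurexins and neuroligins are cell adhesion proteins that meet across the synaptic cleft. Expression of 5 of their genes, the neurexins Nrxn2 and Nrxn3 and the neuroligins Nlgn1, Nlgn2 and Nlgn3, was measured in nuclei of the mouse forebrain. The genes were taken by symbol, and all 5 were found among the 32285 genes of the deposited count matrix. The samples were forebrains of 3 WT mice and 3 littermate Npc1-/- mice at P16 (postnatal day 16). The Npc1-/- mice carry the Npc1nih allele in every cell and were F1 hybrids of the BALB/cJ and C57BL6/J backgrounds, so that the loss of NPC1, a protein that exports cholesterol from late endosomes and lysosomes, is not limited to 1 cell type. Nuclei were isolated from frozen tissue and sequenced by single-nucleus RNA-seq (snRNA-seq) on the 10x Genomics platform, with unique molecular identifiers (UMIs) that count molecules.

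Neurexins sit mainly in the presynaptic membrane, where they bind scaffold proteins inside the terminal and many different partners outside it. Neuroligins are their best known postsynaptic partners: Nlgn1 is associated with excitatory synapses, Nlgn2 with inhibitory synapses, and Nlgn3 is found at both. Glia also transcribe several of these genes, and oligodendrocyte progenitor cells (OPCs) receive synapses from neurons while oligodendrocytes do not keep them.

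The matrix held 497750379 UMIs in 75878 barcodes from 6 libraries, of which 75867 nuclei were kept. The libraries held 8217 to 16118 barcodes and 51343653 to 107583300 UMIs, with medians of 4469 to 5439 UMIs per nucleus. The barcodes name a library from 1 to 6 but not a mouse, so WT and Npc1-/- nuclei could not be told apart and no comparison of the genotypes was made. All values describe nuclei of both genotypes together, and libraries are given singly or as lowest, median and highest value, not as replicates. In all, 1264 barcodes shared their 16 bases with a barcode of another library. Clustering without the 5 genes and their listed partners gave 33 clusters, 23 of which (54442 nuclei, 71.8%) were named as 15 classes from marker genes, and 9 neuronal subtypes were named within these classes. Of the classes, 4 were neurons and 10 were glia or other non-neuronal cells, and dividing cells (555 nuclei) were counted with neither. Every class had at least 3 markers above 2 times their median level in the other classes, although cortical excitatory neurons had only 3 of 8. Classes with subtypes were replaced by them to give 21 finest groups of 46888 nuclei, in which the levels were put in order. The other 7554 named nuclei lay in 7 clusters or sub-clusters without a subtype and are in none of these groups, so highest and lowest below refer to the 21 groups. The class of cortical excitatory neurons also holds the dentate granule (1349 nuclei) and CA neurons (840 nuclei) of the hippocampus.

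RNA of neurons was present in every class. A list of 10 genes of neuronal RNA (Snap25, Syt1, Rbfox3, Slc17a7, Camk2a, Celf4, Stmn2, Nefl, Gad1 and Gad2) summed to 7161 CPM (UMIs of a gene per 1000000 UMIs of a class) in cortical excitatory neurons, and still to 3219 CPM in microglia and 2317 CPM in astrocytes. This amount differed between libraries: in microglia it was 3863 CPM in library 4, but 2358 CPM in library 5 and 2142 CPM in library 6. Library 4 had the highest value of the list in 9 of the 10 non-neuronal classes, and library 5 or 6 the lowest in all 10. Microglia, which are not known to form synapses, served as the background for the glial values below, and the neuronal list is given beside them. The part of free RNA in each glial value was not tested.

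The genes differ in size and place. In GRCm38, Nrxn2 (ENSMUSG00000033768) lies on the plus strand at chr19:6418731-6544169 and Nrxn3 (ENSMUSG00000066392) on the plus strand at chr12:88722876-90334935. Nlgn1 (ENSMUSG00000063887) lies on the minus strand at chr3:25426215-26332460, Nlgn2 (ENSMUSG00000051790) on the minus strand at chr11:69823122-69837784, and Nlgn3 (ENSMUSG00000031302) on the plus strand at chrX:101299168-101325963. Nrxn3 spans 1612 kb, of which 0.782% is exon, and Nlgn1 spans 906 kb, of which 1.48% is exon. Nrxn2 spans 125 kb, while Nlgn3 and Nlgn2 are short, with spans of 26.8 and 14.7 kb. Nuclear RNA is rich in introns and the values were not corrected for length, so levels are compared between classes for 1 gene and never between genes. Nrxn2 overlaps the antisense gene Gm14964 (4904 UMIs) and Slc22a12 on the other strand (306 UMIs), and Nlgn1 overlaps Gm37573 on its own strand (670 UMIs) and the antisense gene A830092H15Rik (1563 UMIs). Beside these, Nrxn2 had 91191 UMIs and Nlgn1 1779189 UMIs. Over all nuclei the other genes had 2504737 UMIs for Nrxn3, 17187 for Nlgn2 and 17285 for Nlgn3, so that Nlgn2 and Nlgn3 carry the largest counting error.

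Nrxn2 was highest in OPCs. Its level there was 554 CPM (95% interval 541 to 567, counting error only), against 183 CPM over all nuclei, and the libraries ranged from 483 over a median of 553 to 640 CPM. Astrocytes followed at 288 CPM (libraries 244, 293 and 301 as lowest, median and highest), and every library of OPCs was above every library of astrocytes. Dividing cells had 253 CPM and immature oligodendrocytes 227 CPM. Mature oligodendrocytes, which wrap axons in myelin, had 122 CPM (libraries 89.9, 126 and 169), and microglia had 93.7 CPM (libraries 51.1, 93.4 and 108). Among neurons the highest level was in Adarb2 interneurons, with 219 CPM (libraries 172, 228 and 256), and the lowest of all 21 groups was in the Drd1 projection neurons of the striatum, with 85.8 CPM (libraries 66.6, 84.8 and 102). Per 100 UMIs of the neuronal list, OPCs had 22.2 UMIs of Nrxn2, astrocytes 12.4 and microglia 2.91, and all nuclei together had 3.46. Counted per nucleus instead of in CPM, OPCs were still first among the 21 groups with 1.93 UMIs. Subcortical excitatory neurons also had 1.93 but hold more UMIs (a median of 9572 per nucleus against 3218). Outside these groups, a cluster of 3545 cortical excitatory nuclei without a subtype had 213 CPM of Nrxn2 at a median of 9257 UMIs per nucleus. Its place in the order per nucleus was not computed.

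**Figure D1:**
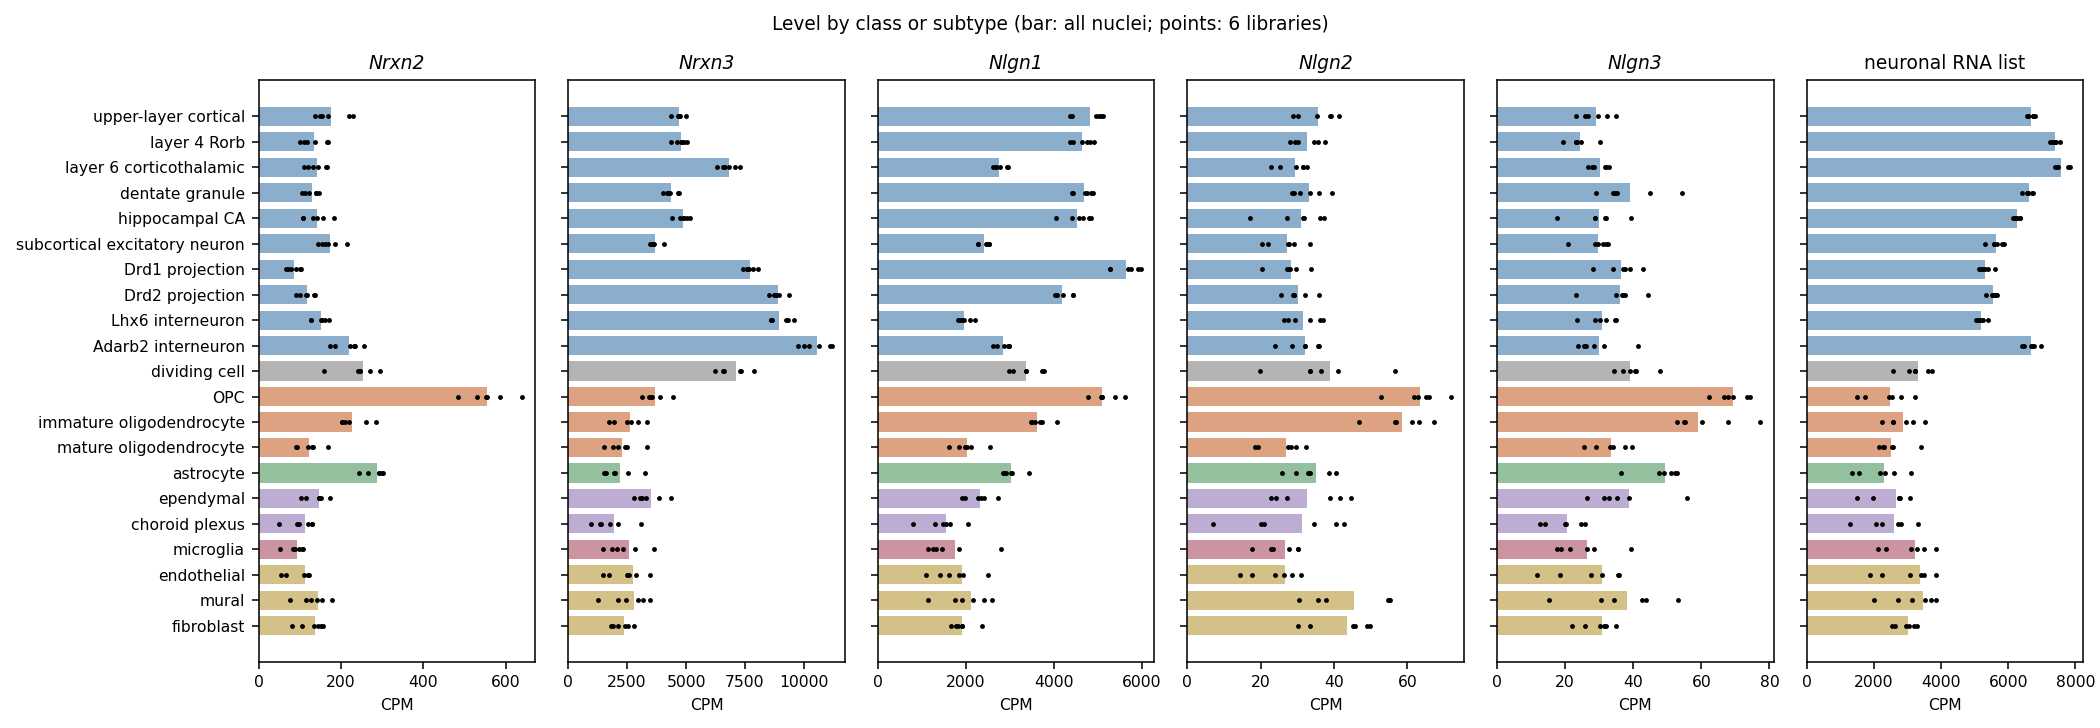
Level of the 5 genes and of the summed neuronal RNA list in CPM (x axes, from 0) in each class or subtype of nuclei (y axis), with bars for all nuclei and points for the 6 libraries. Nrxn2 is highest in OPCs at 554 CPM, Nrxn3 in Adarb2 interneurons at 10547 CPM and Nlgn1 in Drd1 projection neurons at 5649 CPM, while Nlgn2 and Nlgn3 are highest in OPCs with broad spreads between libraries.

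Nrxn3 was highest in GABAergic neurons. Adarb2 interneurons had 10547 CPM (95% interval 10480 to 10613; libraries 9751, 10430 and 11183) and Lhx6 interneurons 8956 CPM (libraries 8605, 8948 and 9585). The striatal projection neurons, which are also GABAergic, followed with 8887 CPM in Drd2 neurons (libraries 8511, 8812 and 9364) and 7712 CPM in Drd1 neurons (libraries 7431, 7634 and 8054). The ranges of the libraries did not overlap between Adarb2 and Lhx6 interneurons, nor between Drd2 and Drd1 neurons, but those of Lhx6 interneurons and Drd2 neurons did. Dividing cells had 7114 CPM (libraries 6210, 6953 and 7878). In the cortex and hippocampus, layer 6 corticothalamic neurons had 6816 CPM (libraries 6300, 6742 and 7271), above all libraries of hippocampal CA neurons, which had 4874 CPM, of layer 4 Rorb neurons, with 4788 CPM, of upper-layer neurons, with 4712 CPM, and of dentate granule neurons, with 4384 CPM. Subcortical excitatory neurons were the lowest neurons with 3673 CPM. A sub-cluster of 330 interneurons without a subtype had 11254 CPM (libraries 10124 to 11959).

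In the 10 non-neuronal classes, Nrxn3 lay between 1953 CPM in choroid plexus and 3693 CPM in OPCs, with microglia at 2565 CPM (libraries 1475, 2212 and 3656). Its value was highest in library 4 in 9 of the 10 non-neuronal classes and lowest in library 5 or 6 in all 10, the same counts as for the neuronal list. For Nlgn1 these counts were 8 and 8. They were 5 and 8 for Nrxn2, 2 and 6 for Nlgn2, and 2 and 7 for Nlgn3. Per 100 UMIs of the neuronal list, OPCs had 148 UMIs of Nrxn3 and ependymal cells 132. The other 8 non-neuronal classes had 74.9 to 95.5, with 79.7 in microglia, against 94.9 over all nuclei. Dividing cells had 214.

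Nrxn3 also varied within interneurons. Adarb2 interneurons were split into 3 sub-clusters, and Nrxn3 differed 5.73-fold between them. It was 22251 CPM (libraries 20581 to 23815) in 229 nuclei led by Frem1, Megf10 and Cadps2, 10755 CPM (libraries 9584 to 11738) in 445 nuclei led by Vip, and 3880 CPM (libraries 3152 to 4540) in 457 nuclei led by Sv2c, Pde11a and Crispld1. None of these 3 ranges overlapped, and the last sub-cluster was below cortical excitatory neurons. Among the 5 sub-clusters of Lhx6 interneurons the level went from 5920 CPM in 437 nuclei led by Corin and Slit2 to 17773 CPM (libraries 16132 to 18921) in 195 nuclei led by Lama4 and Hpse. The summed neuronal list did not follow this order: it was 6810 CPM in the Frem1 sub-cluster and 7890 CPM in the Sv2c sub-cluster. Over the 4 sub-clusters each of Drd1 and Drd2 neurons, Nrxn3 varied 1.31-fold and 1.67-fold. The sub-clusters were chosen for description after their values were seen.

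**Figure D2:**
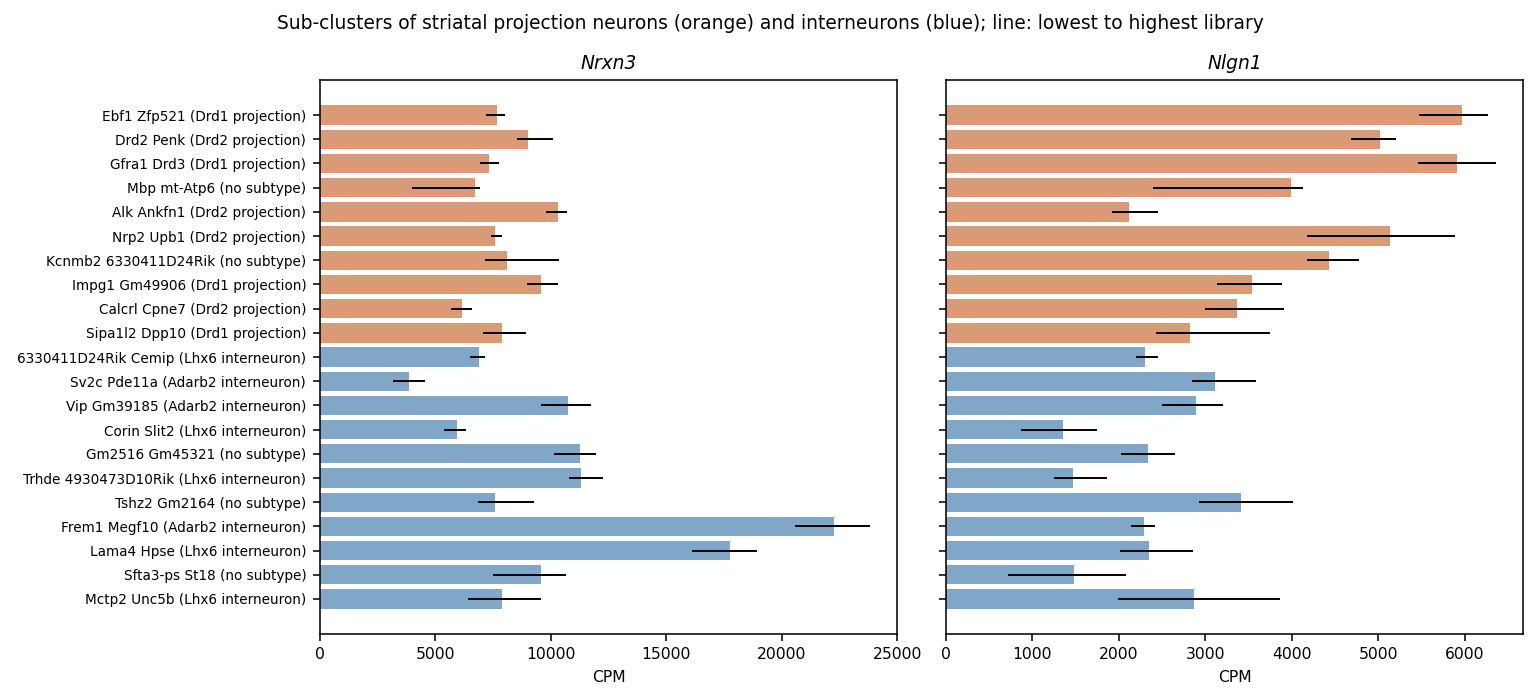
Level in CPM (x axes, from 0) of Nrxn3 and Nlgn1 in sub-clusters of striatal projection neurons (orange) and interneurons (blue). The sub-clusters are named on the y axis by their leading genes, with a black line from the lowest to the highest library. Nrxn3 reaches 22251 CPM in the Frem1 sub-cluster of interneurons and 3880 CPM in the Sv2c sub-cluster, and Nlgn1 is 2116 CPM in the Alk sub-cluster of Drd2 neurons.

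Nlgn1 was highest in CPM in Drd1 projection neurons, with 5649 CPM (95% interval 5616 to 5682; libraries 5277, 5719 and 5989), followed by OPCs with 5100 CPM (libraries 4767, 5087 and 5609), whose library range overlapped with that of the Drd1 neurons although Drd1 neurons were higher within all 6 libraries. Per nucleus, Drd1 neurons ranked 4th, with 42.1 UMIs, below upper-layer neurons, with 45.0, hippocampal CA neurons, with 43.4, and layer 4 Rorb neurons, with 43.2. Upper-layer, dentate granule, layer 4 Rorb and hippocampal CA neurons lay close together, at 4833, 4690, 4643 and 4533 CPM. Layer 6 corticothalamic neurons had 2763 CPM (libraries 2618, 2732 and 2970), below every library of these 4 subtypes. Subcortical excitatory neurons had 2425 CPM (libraries 2275, 2469 and 2520) and Lhx6 interneurons 1956 CPM (libraries 1814, 1927 and 2212). In CPM this is in the range of microglia, with 1753 CPM (libraries 1142, 1381 and 2801). Per nucleus, Lhx6 interneurons had 16.2 UMIs of Nlgn1 and microglia 4.43. The neuronal list was 5197 CPM in Lhx6 interneurons, against 3219 CPM in microglia, where 54.5 UMIs of Nlgn1 came with 100 UMIs of the list. Endothelial, mural, fibroblast and choroid plexus nuclei had 57.1 to 63.6 such UMIs, also below the 67.4 of all nuclei. Astrocytes had 131 and OPCs 204 UMIs of Nlgn1 per 100 UMIs of the list.

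Within the Drd2 neurons, Nlgn1 was 2116 CPM (libraries 1922 to 2454) in 486 nuclei led by Alk, Ankfn1 and Casz1. It was 5020 CPM (libraries 4677 to 5204) in 957 nuclei led by Drd2 and Penk, and 5135 CPM (libraries 4174 to 5882) in 348 nuclei led by Nrp2. The fourth sub-cluster, 142 nuclei led by Calcrl, lay between them with 3364 CPM (libraries 2995 to 3911). The range of the Alk sub-cluster lay below those of the other 3. Drd1 neurons showed a like spread, from 2823 CPM in 125 nuclei led by Sipa1l2 and 3540 CPM in 197 nuclei led by Impg1 to 5962 CPM in 1384 nuclei led by Ebf1. Over the 4 Drd1 sub-clusters Nlgn1 differed 2.11-fold, Nrxn2 1.97-fold, Nlgn2 1.90-fold and Nlgn3 1.14-fold, but the library ranges of the highest and lowest sub-cluster overlapped for Nrxn2 (100.5 to 199 and 37.0 to 137 CPM) and Nlgn2 (19.1 to 53.7 and 5.41 to 35.4 CPM).

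Nlgn2 and Nlgn3 were both highest in CPM in OPCs, followed by immature oligodendrocytes, whereas mature oligodendrocytes had 26.8 and 33.4 CPM. Nlgn2 was 63.6 CPM in OPCs (95% interval 59.2 to 68.2; libraries 52.9, 64.1 and 71.9) and 58.7 CPM in immature oligodendrocytes (libraries 46.9, 59.1 and 67.3), 2 groups that overlapped. Mural cells followed with 45.3 CPM (libraries 30.6, 46.3 and 55.4) and fibroblasts with 43.6 CPM (libraries 30.3, 45.5 and 49.9). The 9 neuronal subtypes lay between 28.4 and 35.7 CPM, with Adarb2 interneurons at 32.0, Lhx6 interneurons at 31.6 and upper-layer neurons at 35.7 CPM. Microglia, the lowest group, had 26.6 CPM (libraries 17.5, 25.5 and 30.3). In all 20 pairs of neighbours the library ranges and the counting intervals overlapped.

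Nlgn3 was 69.3 CPM in OPCs (95% interval 64.7 to 74.1; libraries 62.2, 68.5 and 74.1), 59.1 CPM in immature oligodendrocytes (libraries 52.9, 57.7 and 77.3) and 49.2 CPM in astrocytes (libraries 36.5, 50.1 and 52.9). Every library of OPCs was above every library of astrocytes. Dentate granule neurons were the highest neuronal group in pooled CPM, with 39.2 CPM (libraries 29.1, 34.9 and 54.3). Drd1 and Drd2 neurons, at 36.5 and 36.0 CPM, had higher library medians, of 37.3 and 36.7 CPM. Layer 4 Rorb neurons were the lowest neuronal group, with 24.5 CPM, next to microglia with 26.4 CPM (libraries 17.5, 24.0 and 39.3). Outside the 21 groups, a sub-cluster of 661 striatal nuclei without a subtype, led by the myelin gene Mbp, had 46.3 CPM of Nlgn3, the 330 interneurons above had 40.02 CPM and a cluster of 2391 cortical nuclei 24.0 CPM. Counted per nucleus, OPCs were no longer the highest for either gene: they ranked 13th for Nlgn2, with 0.221 UMIs, and 11th for Nlgn3, with 0.241 UMIs per nucleus, among the 21 groups.

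The highest group exceeded the lowest 6.46-fold for Nrxn2, 5.40-fold for Nrxn3, 3.65-fold for Nlgn1, 2.39-fold for Nlgn2 and 3.37-fold for Nlgn3. Taken over the libraries as a whole, the ranges of neighbours in the order overlapped in 19 of 20 pairs for Nrxn2, 17 for Nrxn3, 19 for Nlgn1, and all 20 for Nlgn2 and for Nlgn3. The separated pairs were OPCs and astrocytes for Nrxn2, the 3 pairs named above for Nrxn3 (Adarb2 over Lhx6 interneurons, Drd2 over Drd1 neurons, and layer 6 over hippocampal CA neurons), and layer 6 corticothalamic over subcortical excitatory neurons for Nlgn1. Within libraries, the higher neighbour was higher in all 6 in 4 pairs for Nrxn2, 5 for Nrxn3, 5 for Nlgn1, 1 for Nlgn2 and 1 for Nlgn3, the last pairs being immature oligodendrocytes over mural cells and over astrocytes.

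Shares of nuclei with a UMI were compared after each nucleus was thinned to 2000 UMIs, and shallower nuclei were left out. For Nrxn2, 63.7% of 3062 OPC nuclei had a UMI (exact 95% interval 62.0 to 65.4), against 41.6% of astrocytes, 27.5% of cortical excitatory neurons and 17.2% of 1658 microglia (interval 15.5 to 19.2). Drd1 neurons had a like share of 16.2%, but are deeper, with a median of 6695 UMIs per nucleus against 2282 in microglia. Before thinning they held 0.639 UMIs of Nrxn2 per nucleus, against 0.237 in microglia. Without thinning, the shares were 78.1% of OPCs, 58.2% of astrocytes, 69.5% of cortical excitatory neurons and 19.4% of microglia. Nrxn3 and Nlgn1 were found in most nuclei of every class, and even in 94.9% and 94.0% of microglia. For Nrxn3, mature oligodendrocytes (77.1%, interval 75.4 to 78.8), choroid plexus (81.6%) and immature oligodendrocytes (86.0%) were lowest. Dentate granule neurons (89.2%), fibroblasts (89.6%), endothelial cells (91.4%) and astrocytes (93.4%) were also below microglia, subcortical excitatory neurons (94.5%) and mural cells (94.7%) were near them, and striatal projection neurons were at 99.9%. For Nlgn1 the share was lowest in choroid plexus, at 77.9%, and 99.8% in OPCs, and fibroblasts (87.5%), endothelial cells (88.5%), Lhx6 interneurons (89.0%) and mature oligodendrocytes (89.5%) were also below microglia, with mural cells (93.1%) and subcortical excitatory neurons (93.3%) near them. Nlgn2 was found in 13.02% of immature oligodendrocytes, 11.8% of OPCs, 10.1% of mural cells and 5.19% of microglia, with 5.52 to 7.47% in neuronal subtypes, and Nlgn3 in 12.3% of OPCs, 11.6% of immature oligodendrocytes, 9.38% of astrocytes and 5.31% of microglia. Unthinned, the order was another: Nlgn2 was found in 25.9% of cortical excitatory neurons, 25.0% of immature oligodendrocytes, 19.4% of OPCs and 6.25% of microglia, and Nlgn3 in 25.9% of subcortical and 22.8% of cortical excitatory neurons, 25.0% of immature oligodendrocytes, 20.6% of OPCs and 6.37% of microglia. Medians were 3218 UMIs per nucleus in OPCs, 3990 in immature oligodendrocytes and 2282 in microglia, and 425 OPC and 965 microglia nuclei were too shallow for thinning.

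Classes were then compared as log2 ratios of pooled CPM, with exact 95% intervals that cover counting error only. Because no library could be tied to a mouse, the nuclei were handled as 1 sample, the libraries are given singly, and no test was made. A gene is counted as higher or lower where its pooled ratio is at least 2-fold, among genes with at least 20 UMIs in both classes together, and the share of all such genes past 2-fold is the background. The other genes of the pathway were followed in 6 lists: neurexin partners outside the neuroligins (22 genes, such as the LRRTM proteins, cerebellins, neurexophilins and latrophilins), the presynaptic scaffold of neurexins (7 genes), inhibitors and modulators of neuroligins (5 genes), the excitatory (9 genes) and inhibitory (7 genes) postsynaptic scaffolds, and regulators of neurexin splicing (5 genes).

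**Figure D3:**
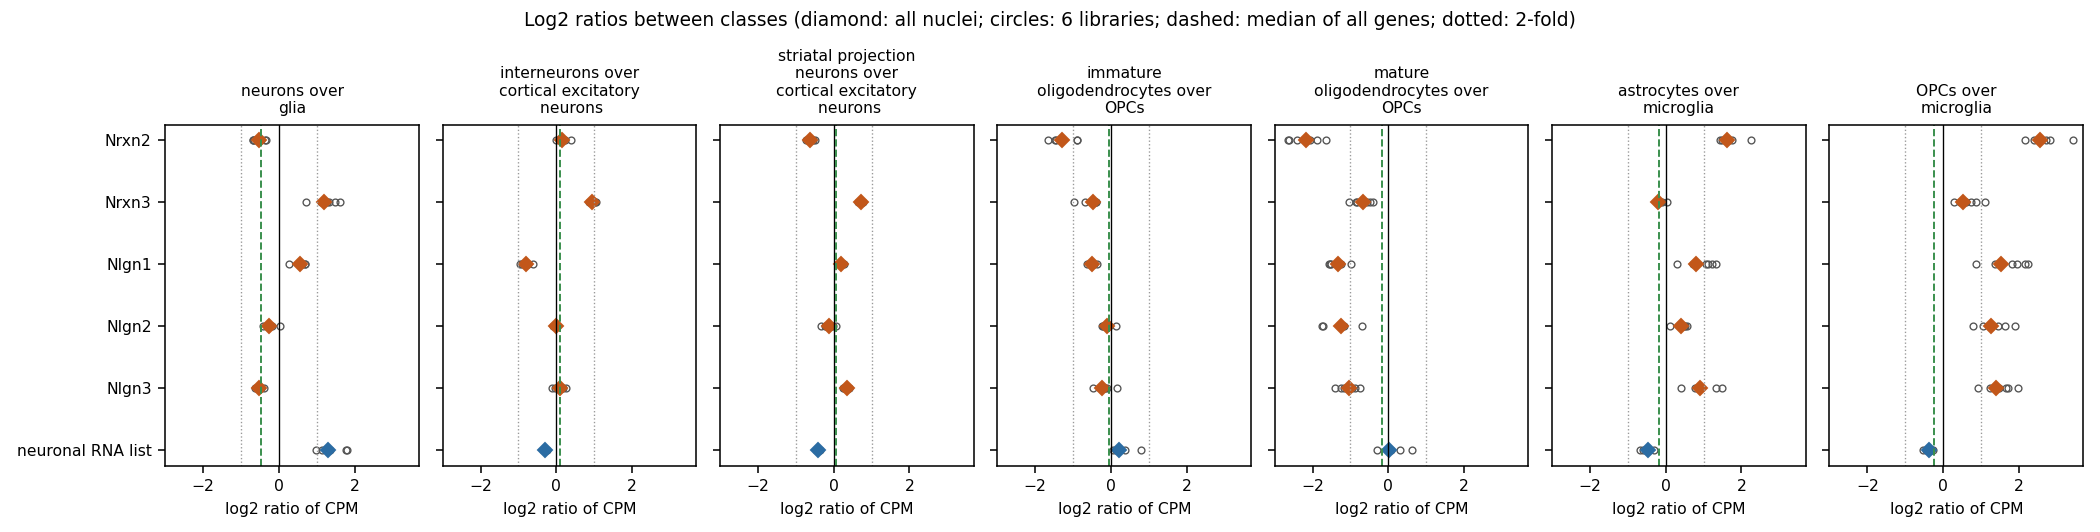
Log2 ratios (x axes) of the 5 genes and the neuronal RNA list (y axis) in 7 comparisons of classes, where glia stands for the 10 non-neuronal classes without dividing cells. Diamonds are all nuclei, circles the 6 libraries, the dashed line the median of all genes and dotted lines a 2-fold ratio. In CPM, 4 of the 5 genes lie beyond 2-fold below OPCs in mature oligodendrocytes (Nrxn2 at -2.18), as do 10.3% of all genes. Counted per nucleus, 1 of the 5 and 412 of all genes do. In OPCs, 4 of the 5 lie beyond 2-fold above microglia in CPM (Nrxn2 at 2.56), as do 9.18% of all genes.

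Neurons were first compared with the 10 non-neuronal classes together, without dividing cells. Nrxn3 was 5878 CPM in neurons and 2595 CPM in non-neuronal nuclei, a log2 ratio of 1.18 (95% interval 1.17 to 1.19; libraries 0.73 to 1.62), close to the 1.29 of the neuronal list. Nlgn1 was also higher in neurons, with a ratio of 0.57 (libraries 0.27 to 0.70). Nrxn2 and Nlgn3 were lower in neurons in CPM, with ratios of -0.52 each and the same sign in all 6 libraries, but higher when counted per nucleus, with 0.58 each. Nlgn2, at -0.26 (libraries -0.41 to 0.03), was lower in 5 of 6 libraries and changed sign when scaled per nucleus (0.83) or by TMM factors (0.22). The median of all genes was itself at -0.48, and relative to it the ratios were -0.04 for Nrxn2, 1.66 for Nrxn3, 1.05 for Nlgn1, 0.22 for Nlgn2 and -0.03 for Nlgn3. Of 23336 genes, 8.54% were at least 2-fold higher in neurons and 29.8% at least 2-fold lower, and of the 5 genes Nrxn3 was higher and none lower. With TMM factors 3723 genes were higher and 4422 lower, in place of 1994 and 6960, and Nlgn1 passed 2-fold as well. Per nucleus the split of all genes turned, with 7662 higher and 2803 lower, and Nrxn3 and Nlgn1 were past 2-fold.

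Among the partners, 2 of 22 neurexin partners were higher in neurons and 1 lower (median -0.06 against -0.48 for all genes), from Nxph2, a neurexophilin, at 1.90 to Sparcl1, the astrocyte protein hevin, at -2.04. In the presynaptic scaffold 1 of 7 was higher and 1 lower (median 0.04), namely Lin7a at 1.14 and Lin7c at -1.05. Of the neuroligin modulators 1 of 5 was higher (median 0.69), the receptor phosphatase Ptprd at 1.40, and the lowest was Ptprf at -0.12. The excitatory scaffold had 2 of 9 higher (median 0.56), from Dlg2 at 1.41 to Dlg3 at 0.11. The inhibitory scaffold had 2 of 7 higher and 1 lower (median 0.37), from Iqsec3 at 1.13 to Insyn2a at -1.72. Of the splicing regulators 2 of 5 were higher (median -0.32), from Khdrbs3, which encodes the RNA-binding protein SLM2, at 1.46 to Ptbp1 at -0.76. Counted per nucleus, every ratio of this comparison lay 1.10 higher on the log2 scale, and 14 of the 22 neurexin partners, all 9 genes of the excitatory scaffold and 4 of the 5 neuroligin modulators were higher, with none of the partners lower.

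Inhibitory and excitatory neurons were compared as interneurons over cortical excitatory neurons, a class that includes the hippocampal nuclei. Nrxn3 was higher in interneurons, with 9464 against 4923 CPM and a log2 ratio of 0.94 (interval 0.94 to 0.95; libraries 0.85 to 1.04). Nlgn1 was lower, with 2463 against 4294 CPM and a ratio of -0.80 (interval -0.81 to -0.79; libraries -0.97 to -0.61). The signs of both held in all 6 libraries. Nrxn2 had a ratio of 0.16, with 5 of 6 libraries above 0. Nlgn2, the neuroligin of inhibitory synapses, differed little, with 32.2 against 32.6 CPM and a ratio of -0.02 whose interval (-0.12 to 0.08) included 0, and so did Nlgn3 at 0.09 (-0.01 to 0.19). The neuronal list had a ratio of -0.30. Of 21326 genes, 8.11% were at least 2-fold higher and 7.28% at least 2-fold lower, and none of the 5 genes passed 2-fold, with all genes at a median of 0.11.

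Here the neurexin partners held the highest ratio of all lists: Nxph1, a secreted ligand of neurexins, was 2396 CPM in interneurons and 93.1 CPM in cortical excitatory neurons, a ratio of 4.69, while C1ql3 was lowest at -1.50. Of the 22 partners 2 were higher and 2 lower (median -0.07). In the presynaptic scaffold none of 7 passed 2-fold (median -0.22), from Apba1 at 0.53 to Lin7a at -0.80. The neuroligin modulators had 2 of 5 lower (median -0.14), from Mdga2 at 0.07 to Mdga1, which binds and blocks neuroligins, at -1.88. The excitatory scaffold had 1 of 9 lower (median -0.28), from Dlgap1 at 0.68 to Dlg1 at -1.12, and the inhibitory scaffold none of 7 (median 0.14), from Insyn2a at 0.47 to Shisa7 at -0.68. Of the splicing regulators 2 of 5 were lower (median -0.01), from Ptbp1 at 0.16 to Khdrbs3 at -1.23.

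Striatal projection neurons differed from cortical excitatory neurons in both neurexins. Nrxn3 was 8095 against 4923 CPM, with a log2 ratio of 0.72 (interval 0.71 to 0.72; libraries 0.64 to 0.78), and Nrxn2 was 106 against 162 CPM, with a ratio of -0.61 (interval -0.66 to -0.57; libraries -0.73 to -0.50). Nlgn1 at 0.19 and Nlgn3 at 0.35 were higher in all 6 libraries in CPM, but their ratios were -0.23 and -0.07 per nucleus. Nlgn2 was at -0.12 (libraries -0.33 to 0.06). The neuronal list had a ratio of -0.41. Of 21383 genes, 6.99% were at least 2-fold higher and 10.9% at least 2-fold lower, and none of the 5 genes passed 2-fold. Per nucleus, all genes were split into 893 higher and 3902 lower in place of 1494 and 2323, and Nrxn2 was past 2-fold at -1.04.

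Of the neurexin partners 1 of 22 was higher and 3 lower in striatal neurons (median 0.05 against 0.06 for all genes), with Igsf21 lowest at -2.18. The presynaptic scaffold had 1 of 7 lower (median -0.24), from Lin7c at 0.05 to Apba2 at -1.29. The neuroligin modulators had 2 of 5 lower (median -0.70), from Mdga2 at 0.13 to Ptprd at -1.79. The excitatory scaffold had 2 of 9 lower (median -0.43), from Shank3 at 0.38 to Shank1 at -1.78. The inhibitory scaffold had 1 of 7 higher and 1 lower (median 0.45), from Insyn1 at 1.04 to Iqsec3 at -1.20. The splicing regulators had 2 of 5 lower (median -0.14), from Ptbp1 at 0.20 to Khdrbs3 at -2.56, with 106 CPM in striatal and 624 CPM in cortical excitatory neurons. Per nucleus none of the 22 neurexin partners was higher and 3 were lower.

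In the oligodendrocyte lineage, which the study is about, immature oligodendrocytes were compared with OPCs. Nrxn2 was 227 CPM in immature oligodendrocytes and 554 CPM in OPCs, a log2 ratio of -1.28 (interval -1.35 to -1.21; libraries -1.66 to -0.89). Nrxn3 at -0.48 and Nlgn1 at -0.50 were lower in all 6 libraries in CPM, but were at 0.10 and 0.08 per nucleus. Nlgn2 had a ratio of -0.12, whose interval (-0.27 to 0.04) included 0, and Nlgn3 of -0.23 (interval -0.39 to -0.07), and each was lower in 5 of 6 libraries. The 2 neuroligins were 0.46 and 0.35 per nucleus. The neuronal list had a ratio of 0.21. Of 16482 genes, 5.07% were at least 2-fold higher and 5.79% at least 2-fold lower, and of the 5 genes Nrxn2 was lower. Per nucleus, 2517 genes were higher and 376 lower in place of 836 and 955, and Nrxn2 was at -0.70 and no longer past 2-fold. Without the nuclei with the highest doublet scores Nrxn3 was at -1.01, and 1144 genes were lower.

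Between these stages, of 21 neurexin partners tested, 1 was higher and 1 lower, against 5.07% and 5.79% of all genes (median -0.24 against -0.07 for all genes), Nxph2 at 1.16, with 3.67 against 1.65 CPM, and Nxph1 at -1.70, with 639 against 2071 CPM. No gene of the other lists passed 2-fold. The presynaptic scaffold went from Apba1 at 0.80 to Lin7b at -0.33 (median -0.11), and the neuroligin modulators from Ptprd at 0.40 to Mdga2 at -0.63 (median -0.18). The excitatory scaffold went from Dlg1 at 0.87 to Magi2 at -0.47 (median -0.17), the inhibitory scaffold from Iqsec3 at 0.63 to Shisa7 at -0.72 (median -0.08), and the splicing regulators from Ptbp1 at 0.35 to Khdrbs2 at -0.71 (median 0.06). Per nucleus 2 neurexin partners were higher and 1 lower, and 1 gene each of the presynaptic, excitatory and inhibitory scaffolds was higher.

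In CPM, 4 of the 5 genes were at least 2-fold lower in mature oligodendrocytes than in OPCs, as were 10.3% of 17355 genes, while 1 of the 5 was past 2-fold per nucleus. Nrxn2 had a log2 ratio of -2.18 (interval -2.25 to -2.11; libraries -2.65 to -1.65), Nlgn1 of -1.33 (interval -1.35 to -1.31; libraries -1.56 to -0.997), Nlgn2 of -1.25 (interval -1.41 to -1.08; libraries -1.75 to -0.71) and Nlgn3 of -1.05 (interval -1.20 to -0.90; libraries -1.41 to -0.76). Nrxn3 was at -0.68 (libraries -1.03 to -0.41) in CPM and at 0.34 per nucleus, but at -1.58 without the 10% of each library's nuclei with the highest doublet scores, where all 5 genes and 2596 genes in all were at least 2-fold lower. With each nucleus scaled to 10000 UMIs it was at -1.10, while Nlgn3 fell short of 2-fold. Mature oligodendrocytes held 5525 UMIs per nucleus at the median and OPCs 3218, and per nucleus the ratios were -1.16 for Nrxn2, -0.30 for Nlgn1, -0.22 for Nlgn2 and -0.02 for Nlgn3. The neuronal list had a pooled ratio of 0.01 (interval -0.01 to 0.04), but its libraries went both ways, from -0.30 in library 3 to 0.63 in library 6, with 5 of 6 above 0. All 5 genes were lower in CPM in all 6 libraries, although the libraries held from 100 to 843 mature oligodendrocyte nuclei. The median of all genes was itself at -0.17, and the share of all genes lower in all 6 libraries was not computed. In the order of libraries 1 to 6, these nuclei numbered 747, 843, 162, 168, 483 and 100. The pooled values therefore weigh the libraries unequally. The paper reports fewer immature and mature oligodendrocytes in Npc1-/- mice, and the share of each genotype in the lineage classes could not be told here. Of all genes, 9.82% were at least 2-fold higher, and the split was 2040 higher and 1334 lower under TMM factors in place of 1704 and 1787, and 6945 and 412 per nucleus.

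The library ranges of mature oligodendrocytes overlapped those of microglia for all 5 genes, but within libraries Nrxn2 was higher in mature oligodendrocytes in all 6, with log2 ratios of 0.17 to 0.92. Within libraries Nlgn3 was higher in 5 of 6, Nrxn3 and Nlgn1 in 4 and Nlgn2 in 3. Nlgn2 was 26.8 CPM in mature oligodendrocytes (libraries 18.6, 27.9 and 32.4) and 26.6 CPM in microglia, Nlgn3 33.4 against 26.4 CPM, Nlgn1 2033 against 1753 CPM, Nrxn3 2301 against 2565 CPM and Nrxn2 122 against 93.7 CPM.

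**Figure D4:**
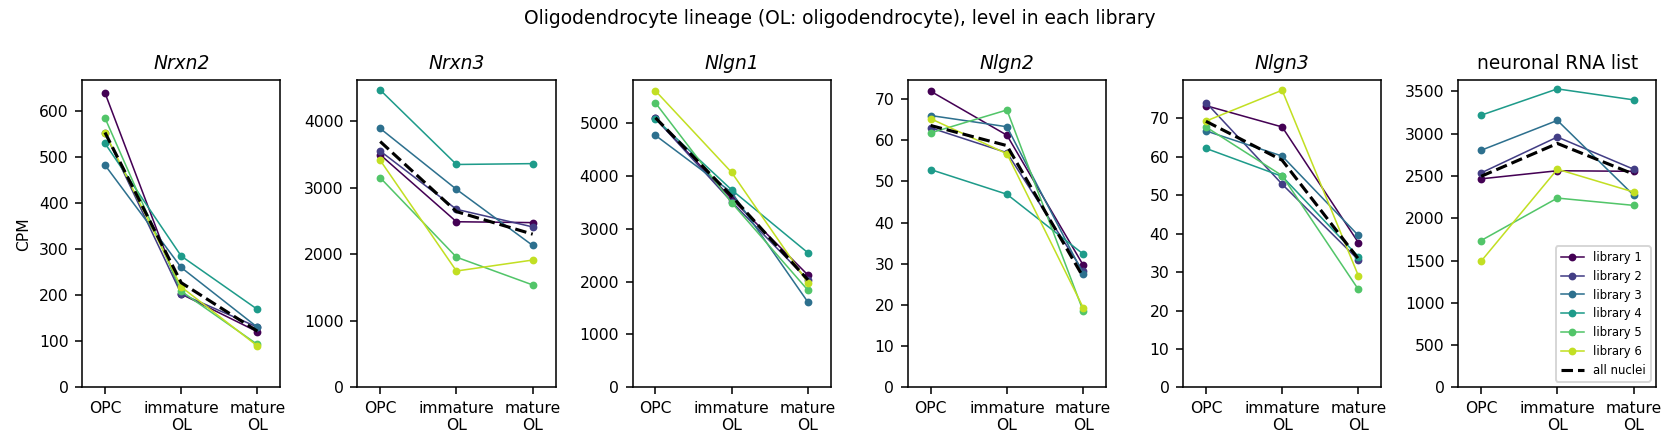
Level in CPM (y axes, from 0) of the 5 genes and the neuronal RNA list in OPCs, immature and mature oligodendrocytes (x axes), with a line for each of the 6 libraries and a dashed line for all nuclei. Nrxn2 goes from 554 over 227 to 122 CPM and Nlgn1 from 5100 over 3618 to 2033 CPM. In CPM, Nlgn2, at 63.6, 58.7 and 26.8, and Nlgn3 are lower mainly in mature oligodendrocytes. Counted per nucleus, the log2 ratios of mature oligodendrocytes over OPCs are -0.22 for Nlgn2 and -0.02 for Nlgn3. Nlgn1 is then not lower in immature oligodendrocytes.

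Of the neurexin partners, the longest list, 10 of 21 were at least 2-fold lower in mature oligodendrocytes and none higher, against 10.3% and 9.82% of all genes. Their median was -0.85, against -0.17 for all genes, and they went from Nxph3 at 0.48 to Nxph1 at -3.23. The lower partners included the postsynaptic adhesion genes Lrrtm3 at -1.31 and Lrrtm4 at -1.27, the delta-type glutamate receptor Grid1 at -1.61 and the latrophilin Adgrl3 at -1.53. This held in CPM: per nucleus every ratio lay 1.03 higher on the log2 scale, and Nxph1 at -2.20 was the 1 partner still 2-fold lower. Then 3 partners were 2-fold higher, and no gene of the other lists was 2-fold lower. Of all 17355 genes, 412 were 2-fold lower and 6945 higher per nucleus. In the presynaptic scaffold 1 of 7 was lower (median -0.41), Cask, the kinase-like scaffold that binds the neurexin tail, at -1.52, and the highest was Apba1 at 0.05. The neuroligin modulators had 1 of 5 higher (median -0.19), from Ptprd at 1.17 to Mdga2 at -0.83. The excitatory scaffold had 1 of 9 higher and 1 lower (median -0.34), from Dlg1 at 1.15 to Dlgap1 at -1.24. The inhibitory scaffold had 2 of 7 lower (median -0.58), from Iqsec3 at 0.32 to Insyn2a at -1.42, and the splicing regulators 1 of 5 (median -0.33), from Khdrbs1 at -0.16 to Khdrbs2 at -1.60.

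Astrocytes and OPCs were each set against microglia. In astrocytes Nrxn2 was 288 against 93.7 CPM, a log2 ratio of 1.62 (interval 1.50 to 1.74; libraries 1.44 to 2.25). Nlgn1 was at 0.79 (libraries 0.29 to 1.32), Nlgn3 at 0.90 (libraries 0.41 to 1.49) and Nlgn2 at 0.41 (libraries 0.11 to 0.56), each above 0 in all 6 libraries. Nrxn3 was at -0.21, below 0 in 5 of 6 libraries, but at 0.02 with TMM factors and 0.34 per nucleus. The neuronal list was lower in astrocytes, with a ratio of -0.47. Of 18212 genes, 13.1% were at least 2-fold higher and 11.9% at least 2-fold lower, with 2917 and 1699 under TMM factors in place of 2390 and 2162, and of the 5 genes Nrxn2 was higher. Per nucleus 4006 genes were higher and 1331 lower, among them Nrxn2, Nlgn1 and Nlgn3 as higher.

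For OPCs over microglia the ratios were 2.56 for Nrxn2 (interval 2.44 to 2.68; libraries 2.16 to 3.44), 1.54 for Nlgn1 (interval 1.51 to 1.57; libraries 0.86 to 2.24), 1.39 for Nlgn3 (interval 1.16 to 1.63; libraries 0.92 to 1.98), 1.26 for Nlgn2 (interval 1.02 to 1.50; libraries 0.80 to 1.90) and 0.53 for Nrxn3 (libraries 0.29 to 1.09). All were above 0 in all 6 libraries, while the neuronal list was at -0.37 and the median of all genes at -0.25. The share of all genes above 0 in all 6 libraries was not computed. Of 16618 genes, 9.18% were at least 2-fold higher and 13.4% at least 2-fold lower in CPM. Of the 5 genes, 4 were higher and none lower. Under TMM factors 2046 genes were higher and 1706 lower in place of 1526 and 2235. Per nucleus 2602 genes were higher and 1445 lower. With a coarser clustering at resolution 0.5 the microglia class took in 4514 nuclei, 2623 of them shared, and its neuronal list was 4474 CPM. Only Nrxn2, at 1.54, was then 2-fold higher in OPCs, while the count of all genes 2-fold higher there fell from 1526 to 805. In astrocytes none of the 5 genes was past 2-fold.

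Of 22 neurexin partners, 4 were higher and 2 lower in astrocytes than in microglia (median -0.04 against -0.18 for all genes). The highest, Nxph4 at 1.74, rests on 0.302 CPM in microglia and an interval from -0.23 to 4.85, and the lowest was the latrophilin Adgrl2 at -1.43. The presynaptic scaffold had 1 of 7 higher and 1 lower (median -0.60), Apba2 at 1.30 and Apba1 at -1.10. The neuroligin modulators had 2 of 5 higher (median 0.55), from Mdga2 at 1.47 to Ptprd at -0.56. In the excitatory scaffold none of 9 passed 2-fold (median 0.30), from Magi2 at 0.91 to Dlg2 at -0.66. The inhibitory scaffold had 1 of 7 higher (median 0.19), from Insyn2a at 1.91 to Shisa7 at -0.57, and the splicing regulators none of 5 (median -0.64), from Ptbp2 at -0.45 to Ptbp1 at -0.76. Per nucleus 8 of the 22 neurexin partners were higher and none lower.

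In OPCs 7 of 21 neurexin partners were higher than in microglia and 3 lower (median 0.30 against -0.25 for all genes), from Nxph1 at 2.98 to Adgrl2 at -1.69. The higher ones included Grid1 at 2.11, Igsf21 at 1.84 and Lrrtm3 at 1.80. The presynaptic scaffold had 1 of 7 lower (median -0.32), from Apba2 at 0.86 to Sdcbp, which encodes syntenin, at -1.02. The neuroligin modulators had 1 of 5 higher (median 0.44), from Mdga2 at 1.31 to Ptprd at -0.36. The excitatory scaffold had 2 of 9 higher (median 0.24), from Dlgap1 at 1.32 to Dlg1 at -0.04, the inhibitory scaffold 1 of 7 (median 0.42), from Insyn2a at 1.58 to Iqsec3 at -0.43, and the splicing regulators 1 of 5 (median -0.10), from Khdrbs2 at 1.49 to Ptbp1 at -0.92. Per nucleus 8 of the 21 neurexin partners were higher and 1 lower.

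Further ratios were computed after the levels were seen and describe where OPCs and the neuronal subtypes stood. No median or share over all genes was computed for them. For neurons over the non-neuronal classes, the median of all genes was -0.48. Against cortical excitatory neurons, OPCs had log2 ratios of 1.78 for Nrxn2, 1.28 for Nlgn3, 0.96 for Nlgn2 and 0.25 for Nlgn1 in CPM, while Nrxn3 was at -0.41 and the neuronal list at -1.52. Counted per nucleus, OPCs were higher for Nrxn2, with 1.93 against 1.57 UMIs, but lower for Nlgn3 (0.241 against 0.276), Nlgn2 (0.221 against 0.317) and Nlgn1 (17.8 against 41.6). Against astrocytes all 5 genes were higher in OPCs in CPM in all 6 libraries, from 0.49 for Nlgn3 to 0.94 for Nrxn2, with the neuronal list at 0.11. How many of all genes were higher in all 6 was not counted. Drd1 over Drd2 neurons gave 0.43 for Nlgn1 (libraries 0.38 to 0.51), -0.20 for Nrxn3 (libraries -0.25 to -0.17) and -0.44 for Nrxn2 (libraries -0.59 to -0.19). Lhx6 over Adarb2 interneurons gave -0.54 for Nrxn2, -0.54 for Nlgn1 and -0.24 for Nrxn3, each lower in all 6 libraries, beside -0.36 for the neuronal list. Layer 6 corticothalamic over upper-layer neurons gave 0.53 for Nrxn3 (libraries 0.44 to 0.62) and -0.81 for Nlgn1 (libraries -0.90 to -0.66). The intervals of Nlgn2 and Nlgn3 included 0 in both comparisons of GABAergic subtypes. Dividing cells over OPCs gave 0.95 for Nrxn3 and -1.13 for Nrxn2, beside 0.41 for the neuronal list.

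The pattern of each gene over the 21 groups was set beside that of the 10487 genes with a mean of at least 10 CPM, by Pearson correlation of log2(CPM + 1). The groups share libraries and free RNA, and the values are a description only. Nrxn2 was most like Gpt2 (r = 0.87), a mitochondrial alanine aminotransferase, followed by Mir9-3hg, Gm29514, Ccdc88a and Plpp4 (r of 0.79 to 0.84). Nrxn3 was most like Gabrg3 (r = 0.88), a GABA-A receptor subunit, with Robo2, Akap6, C2cd5 and Zscan18 close behind (r = 0.87 each). Nlgn2 was most like Cask (r = 0.79), then Acap3, Zfp563, Neu4 and Mthfd2l (r of 0.74 to 0.77), and Nlgn3 most like Lrrc4b (r = 0.83), then Zfp932, Ncam1, Gpt2 and Sox8 (r of 0.76 to 0.80). By Spearman correlation 2, 0, 0 and 1 of the 5 genes named for Nrxn2, Nrxn3, Nlgn2 and Nlgn3 were again among the first 5. Among the 5 genes themselves, Nrxn2, Nlgn2 and Nlgn3 had correlations of 0.69 to 0.71 with each other.

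Nlgn1 stood apart in this comparison, because 1 gene followed it far more closely than any other: Acp1 had r = 0.99, and the next, the AMPA receptor subunit Gria2, had r = 0.83, followed by Wasf1, Dpf1 and Dok6 (r of 0.80 to 0.82). Acp1 (ENSMUSG00000044573), a low molecular weight phosphatase, lies on the minus strand at chr12:30893326-30911589, on another chromosome than Nlgn1. It was 109 CPM in Drd1 neurons and 113 CPM in OPCs, where Nlgn1 was highest, and 46.3 CPM in choroid plexus, where Nlgn1 was lowest. In all 21 groups 1.93 to 2.99 UMIs of Acp1 came with 100 UMIs of Nlgn1.

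**Figure D5:**
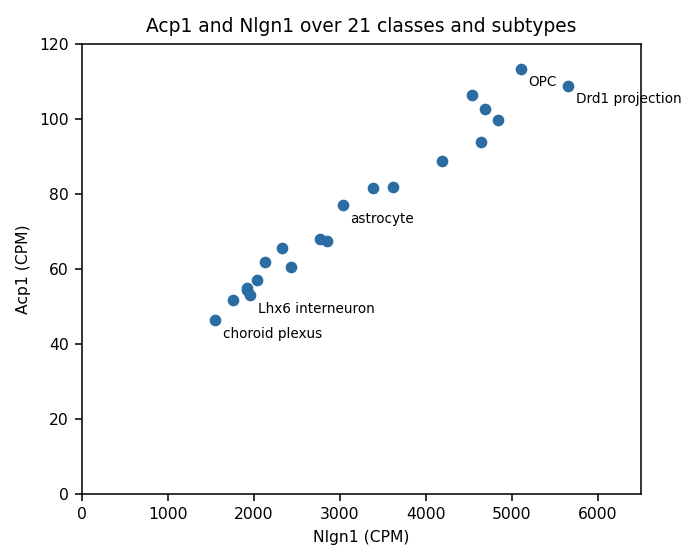
Level of Acp1 against that of Nlgn1, both in CPM, with a point for each of 21 classes and subtypes of nuclei. The points lie along a line from choroid plexus (1547 CPM of Nlgn1, 46.3 CPM of Acp1) to OPCs and Drd1 projection neurons (5100 and 5649 CPM of Nlgn1, 113 and 109 CPM of Acp1).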

How the data were processed

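Nuclei from forebrains of 3 WT and 3 Npc1-/- mice were measured by snRNA-seq. The deposited matrix holds UMI counts as whole numbers, written per the file headers by Cell Ranger 6.0.0, without normalization. The submitters' processing notes name Cell Ranger 2.1.1 and mm10, and the study's methods name STARsolo, GRCm38 and filters for empty droplets, doublets and mitochondrial share. Their relation to the matrix and the counting of introns and strand are not stated in the labels or the methods. No key from library (barcode suffix) to mouse was given, so the planned genotype test was not made, and no sample column was left unused (0).

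Nuclei with a mitochondrial share of at least 10% were left out (11 barcodes). After scaling to 10000 UMIs and log transformation, 3000 variable genes, without the members and listed partners, gave 30 principal components, 20 nearest neighbours and Leiden clusters at resolution 1.0. Clusters were named from 17 marker lists by score (at least 0.3 and 0.25 above the next), with at least 3 markers in 10% of nuclei, no lead of markers of another class and a median Scrublet doublet score of at most 0.10. Doublets were not removed otherwise. Clustering was run 3 times, with other numbers of iterations and rounding, before these settings were kept, and the naming limits and sub-clustering (resolution 0.5) were set after the clusters, but before values of the members, were seen. The macrophage, neuroblast and layer 5 lists named no cluster, and 10 clusters (21425 nuclei, 28.2%) stayed unnamed.

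UMIs were summed per class. CPM carry exact Poisson intervals, ratios exact conditional binomial intervals and shares Clopper-Pearson intervals, all 95% and for counting error only. Only the ratio intervals were tested on simulated data, for immature and mature oligodendrocytes over OPCs. The ratios of the 7 comparisons of classes were read against all genes with at least 20 UMIs, but the further ratios were not. The text names the members, the highest and lowest gene of each partner list (others past 2-fold were chosen after their values were seen) and the 5 genes most like each member. The values of 1 gene of the partner lists are not reported here. The members and lists were chosen with earlier results of these data known. Alternatives were TMM factors (edgeR 4.0.16), UMIs per nucleus, other filters, resolutions, weights and libraries left out. The tools were scanpy 1.11.5 and leidenalg 0.10.2, scikit-learn 1.9.0, pandas 2.3.3, scipy 1.17.1, numpy 2.4.6 and matplotlib 3.10.9 under Python 3.11.15.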

Additional observations from a re-analysis of the deposited data

Results flagged for a closer look

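Nrxn3 was higher in an unnamed cluster than in any named class or subtype, a signal in nuclei outside the comparisons above. In cluster 18 (1762 nuclei, 798 of them from library 3) it was 14816 CPM, with libraries from 12891 to 15634 CPM, against 10547 CPM in Adarb2 interneurons. Within the named subtypes, the Frem1 sub-cluster of Adarb2 interneurons (22251 CPM) and the Lama4 sub-cluster of Lhx6 interneurons (17773 CPM) were higher than cluster 18. The leading genes of the cluster were Cpa6, B020031H02Rik, Lgr5, Pbx3 and Frmd7. Its score was highest for the neuroblast markers, but Dlx6os1, a marker of the interneuron list, was among its 10 leading genes, so it was left without a name. The other genes of the family were at 232 CPM for Nrxn2, 2776 CPM for Nlgn1, 37.0 CPM for Nlgn2 and 38.2 CPM for Nlgn3 there, and the neuronal list at 6327 CPM. The 6 libraries are not a labelled group, so single libraries were not screened for outliers.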

How the results depend on the processing

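The ratios depended most on how classes were scaled. Of the 35 log2 ratios, 35 kept sign and size within the spread of the libraries when Leiden clustering was stopped after 2 iterations (an alternative chosen after seeing the data), with no mitochondrial filter and as median over the libraries, as did all 210 values with 1 library left out. In these settings the count of genes 2-fold higher in astrocytes than in microglia was 1 to 2 with a library left out (2 without library 2, where Nlgn3 joined Nrxn2) and 2 as median over the libraries (Nrxn2 and Nlgn1). A minimum of 100 UMIs leaves the ratios of the 5 genes as they are by construction. Where values moved otherwise, the cause was not tested. No paired analysis was possible for the genotypes because the barcodes carry no replicate number of the labels. The classes were compared within each library, and those ratios are given as a range, with no test.

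Counted as UMIs per nucleus, neurons over non-neuronal classes gave 0.58 for Nrxn2, 2.28 for Nrxn3, 1.66 for Nlgn1, 0.83 for Nlgn2 and 0.58 for Nlgn3, with 2 of the 5 genes at least 2-fold higher, as were 7662 of all genes (2803 lower). Interneurons over cortical excitatory neurons gave 0.84 for Nrxn3 and -0.13 for Nlgn2. Striatal over cortical excitatory neurons gave -1.04 for Nrxn2, 0.29 for Nrxn3, -0.23 for Nlgn1, -0.54 for Nlgn2 and -0.069 for Nlgn3, with 1 gene lower. Immature oligodendrocytes over OPCs gave -0.70, 0.10, 0.084, 0.46 and 0.35 in the same order of genes, with 0 lower, and mature oligodendrocytes over OPCs -1.16, 0.34, -0.30, -0.22 and -0.023, with 1 lower. Astrocytes over microglia gave 2.18, 0.34, 1.35, 0.96 and 1.46, with 3 higher (4006 of all genes, and 1331 lower), and OPCs over microglia 3.03 for Nrxn2, 0.99 for Nrxn3, 1.72 for Nlgn2 and 1.85 for Nlgn3.

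TMM factors moved the median of all genes by 0.48 for neurons over non-neuronal classes, by -0.13 for interneurons over cortical excitatory neurons and by 0.17, 0.23 and 0.26 for mature oligodendrocytes over OPCs, astrocytes over microglia and OPCs over microglia. Under them, the first comparison gave -0.034, 1.66, 1.05, 0.22 and -0.030 with 2 genes higher, interneurons over cortical excitatory neurons 0.81 for Nrxn3, -0.93 for Nlgn1 and -0.15 for Nlgn2, and striatal over cortical excitatory neurons 0.64 for Nrxn3, 0.12 for Nlgn1 and 0.28 for Nlgn3. Astrocytes over microglia gave 0.022 for Nrxn3 and 0.64 for Nlgn2, with 3 genes higher. Relative to the median of all genes (chosen after seeing the data), neurons over non-neuronal classes gave -0.036, 1.66, 1.05, 0.22 and -0.032 with 2 genes higher, interneurons over cortical excitatory neurons 0.84 for Nrxn3 and -0.13 for Nlgn2, striatal over cortical excitatory neurons 0.66 for Nrxn3 and 0.14 for Nlgn1, and astrocytes over microglia -0.033 for Nrxn3 and 0.59 for Nlgn2, with 2 genes higher.

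At resolution 0.5, microglia held 4514 nuclei (2623 of them in the class as reported) and OPCs 3998 (3485). Immature oligodendrocytes over OPCs gave -0.73 for Nrxn3, 0.11 for Nlgn2 and 0.0027 for Nlgn3, and mature oligodendrocytes over OPCs -0.94 for Nrxn3. Astrocytes over microglia gave 0.89, -0.92, 0.048 and 0.20 for Nrxn2, Nrxn3, Nlgn1 and Nlgn2, with 0 of the 5 genes higher. OPCs over microglia gave 1.54, 0.031, 0.74, 0.81 and 0.93, with 1 of the 5 higher, as were 805 of all genes in place of 1526. At resolution 2.0 neurons over non-neuronal classes gave -0.42 for Nlgn3. Without the 10% of each library's nuclei with the highest doublet scores, immature oligodendrocytes over OPCs gave -1.01 for Nrxn3 and 0.070 for Nlgn2, with 2 genes lower, and mature oligodendrocytes over OPCs -1.58 for Nrxn3 and -1.77 for Nlgn1. With each nucleus scaled to 10000 UMIs, the ratios were -0.87 and -1.10 for Nrxn3 in immature and mature oligodendrocytes over OPCs, -1.56 for Nlgn1 in the latter and -0.040 for Nrxn3 in astrocytes over microglia, which was -0.36 with the stricter filter on nuclei (at least 2000 UMIs and under 1% mitochondrial). Depth limits Nlgn2 and Nlgn3, with 48 to 5529 UMIs per class.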

Other observations

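The ratio of Acp1 to Nlgn1 also differed between libraries. Over all nuclei 2.29 UMIs of Acp1 came with 100 UMIs of Nlgn1, and the 6 libraries ranged from 1.70 to 2.87. In cortical excitatory neurons the libraries ranged from 1.65 to 2.65, in OPCs from 1.62 to 2.81 and in Drd1 projection neurons from 1.43 to 2.38. The part of reads shared between these genes was not tested.

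Other unnamed clusters also held the 5 genes. Nrxn3 was 8192 CPM in cluster 32 (205 nuclei) and 6545 CPM in cluster 31 (277 nuclei), and Nlgn1 was 2037 and 4694 CPM there. In cluster 0, the largest (6405 nuclei, median of 2424 UMIs), Nlgn3 was 51.96 CPM and Nlgn2 44.9 CPM, with the neuronal list at 6035 CPM.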
